A study of Mus musculus with 12 samples.

Results

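The knockdown arm of the study compared 3 libraries of PYMT-R221A cells that had received siRNA against Mbd2 with 3 libraries of the same cells that had received a scramble siRNA. These 6 of the 12 libraries of the series were taken by their treatment label alone, and every gene of the deposited table was kept. PYMT-R221A is a mouse mammary tumour cell line. Polyadenylated RNA was sequenced, and the other 6 libraries came from control cells and from cells given 40 µM KCC-07, a compound described in the title of the series as inhibiting the MBD2 pathway. Of 55335 genes in the table, 14935 passed the filter on low counts and were tested. The comparison asks which transcripts change when Mbd2 is lowered, as a genetic counterpart to the compound. All 6 libraries are from 1 cell line, and both groups carried an siRNA, so the arm itself holds no cells without one. The siRNA sequence, whether 1 siRNA or a pool was used, its dose and the time to harvest are not given in the sources used here.

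MBD2 is a protein that binds methylated CpG and brings the NuRD complex, which combines histone deacetylation with nucleosome remodelling, to methylated promoters. An siRNA is a short RNA duplex that guides the cell's own RNA interference machinery to a matching mRNA, and it can also lower other mRNAs that pair with it in part. Double-stranded RNA in the cytosol can be sensed by RIG-I and MDA5, which switch on interferon genes. Secreted interferon then acts through its receptor and the factor ISGF3, which includes IRF9 and binds a motif in the promoters of interferon-stimulated genes.

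The libraries held 26138810 to 32944320 counts with scramble siRNA and 29690940 to 31690050 with Mbd2 siRNA. The mammary epithelial markers used for the check were all detected, with summed levels of 2382 to 2630 CPM (counts scaled to a common library size, so that levels compare between libraries) in the 6 libraries and 0 of 12 at 0. Immune markers summed to 2.37 to 3.53 CPM with 11 or 12 of 14 at 0 in each of the 6 libraries, and Ptprc was at 0 in all 6. Endothelial markers summed to 8.58 to 12.4 CPM and adipocyte markers to 6.42 to 8.38 CPM, and fibroblast markers, of which Pdgfra and Postn gave most, to 190 to 236 CPM. The labels tag the libraries as biological replicates 1, 2 and 3, and this tag pairs 1 scramble with 1 Mbd2 siRNA library. Replicate 3 stood apart in both groups: over genes, the chi-square divided by its degrees of freedom was 3.56 between scramble replicates 1 and 2 and 3.43 between Mbd2 siRNA replicates 1 and 2, and 22.6 to 35.0 between replicate 3 and the others of its group. Mitochondrially encoded transcripts took 3.01% and 2.70% of the counts in the replicate 3 libraries and 2.12% to 2.32% in the other 4. Results are therefore given without the replicate as a term (8 residual degrees of freedom), with the replicate number as a block (4 residual degrees of freedom) where that changes the call, and without the batch 3 libraries where they touch the result.

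Without the block, 6 of the 14935 genes tested passed an adjusted p of 0.05 (0.0402%) in edgeR's quasi-likelihood test, all of them lower with Mbd2 siRNA, and none was higher (0%). At an unadjusted p under 0.05 there were 388 genes higher (2.6%) and 398 lower (2.66%), 5.26% in all, and DESeq2 called 23 higher and 61 lower. With the block, 112 genes changed (0.75%), of which 63 rose (0.422%) and 49 fell (0.328%). The libraries of 48 of the 49 lower genes did not overlap between the groups, and those of 17 of the 63 higher genes did not, against 11.6% and 10.3% of all genes tested in those directions. Of the genes called with the block, 39 were at least 2-fold higher and 1, Mbd2, was at least 2-fold lower.

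**Figure D1:**
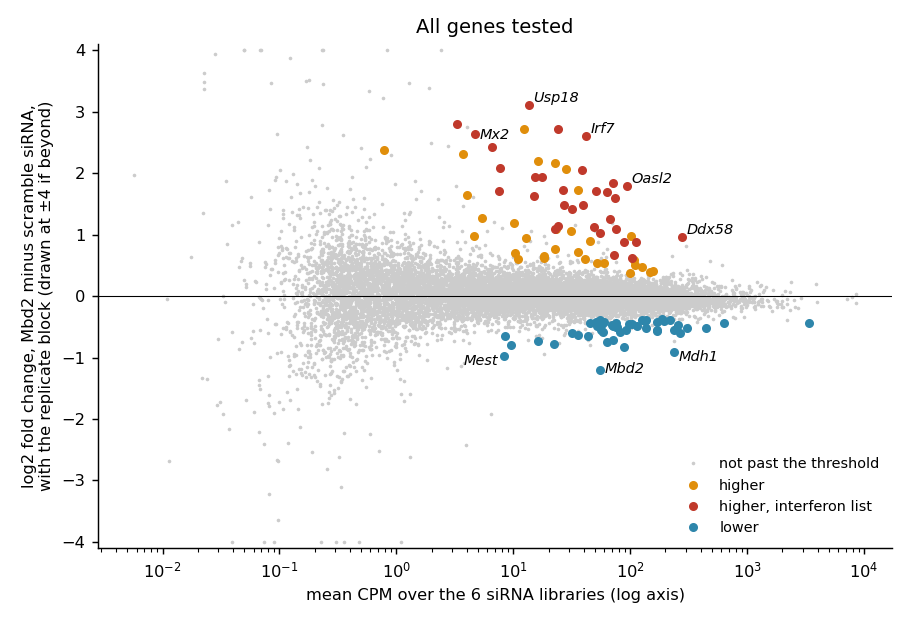
Each dot is 1 of the 14935 genes tested, by its mean CPM over the 6 siRNA libraries (log axis) and its log2 fold change with the replicate block. Coloured dots are the 63 genes that rose, of which the 32 in the interferon list are red, and the 49 that fell; the higher genes reach larger changes than the lower ones.

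Of the 63 genes that rose with the block, 32 were among 52 type I interferon response genes. Because these genes make up the largest group in the comparison, the promoters of 5 of them are shown. They were picked by hand from promoters that hold the motif described below, so a match in each was given by the choice. Each window is the 120 bases that end just before the RefSeq transcription start (GRCm38.p6, 5′ to 3′ on the gene's strand). Capitals mark the core of the interferon-stimulated response element, searched on both strands as GAAA, any 2 bases and GAAA again, with overlapping matches counted. Isg15 lies at chr4:156200819-156200938 (minus strand), Ifit1 at chr19:34640769-34640888 (plus), Igtp at chr11:58199436-58199555 (plus), Oas1a at chr5:120907526-120907645 (minus) and Gbp3 at chr3:142559924-142560043 (plus).
Isg15: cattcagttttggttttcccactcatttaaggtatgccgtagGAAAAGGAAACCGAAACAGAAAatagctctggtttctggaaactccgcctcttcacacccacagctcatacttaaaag
Ifit1: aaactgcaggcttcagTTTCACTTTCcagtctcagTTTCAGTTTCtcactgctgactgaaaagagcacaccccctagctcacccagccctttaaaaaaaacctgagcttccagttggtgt
Igtp: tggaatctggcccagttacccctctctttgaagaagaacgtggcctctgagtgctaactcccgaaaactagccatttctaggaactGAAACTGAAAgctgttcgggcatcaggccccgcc
Oas1a: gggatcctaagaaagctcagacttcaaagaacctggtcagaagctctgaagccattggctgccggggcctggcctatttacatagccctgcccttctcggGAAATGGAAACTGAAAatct
Gbp3: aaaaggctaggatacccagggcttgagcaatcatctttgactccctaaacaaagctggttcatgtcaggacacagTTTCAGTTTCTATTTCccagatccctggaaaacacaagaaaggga

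The windows of Isg15, Ifit1, Oas1a and Gbp3 hold 3, 2, 2 and 2 matches and that of Igtp holds 1. In the 300 bases from 250 before to 50 after the start, the motif was found for 18 of the 37 interferon list genes with a RefSeq promoter (48.6%), against 3.72% of the 10398 genes tested that have one and 3.44% of all 32851 promoter entries. The other 19 of these interferon list genes, Irf7 and Oasl2 among them, had no match. The motif was found for 21 of 47 genes that rose with the block (44.7%) and for 1 of 38 that fell (2.63%). Since MBD2 binds methylated CpG, the CpG content of the same windows was set beside this. The median observed over expected CpG was 0.786 over the genes tested, 0.377 over the genes that rose with the block, 0.848 over those that fell and 0.392 over the interferon list. Over the genes that rose outside the interferon lists it was 0.613, and it was 0.415 over all genes with a RefSeq promoter, taking the highest value where a gene has several promoters. A match to the motif is a description of the sequence, not a site or a cause.

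Mbd2, the target, came first among the genes that fell. It stood at 75.8, 83.2 and 72.5 CPM in scramble replicates 1 to 3 and at 35.7, 34.7 and 30.6 CPM in the Mbd2 siRNA libraries. All 3 knockdown libraries lay far below all 3 scramble libraries, with folds of 0.471, 0.418 and 0.423 within the replicate pairs. The log2 fold change was -1.20 (95% interval -1.39 to -1.01, edgeR adjusted p = 0.000197), so that 0.436 of the mRNA level remained. Mbd2 (chromosome 18, 70568189 to 70626131) was past the threshold in each of its 15 alternatives, with log2 fold changes of -1.24 to -1.13 and adjusted p of at most 0.00635. Fewer transfected cells and less Mbd2 mRNA per cell cannot be told apart in such bulk RNA.

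Mdh1, the cytosolic malate dehydrogenase of the malate-aspartate shuttle, changed almost as much as the target. It stood at 294, 302 and 326 CPM with scramble and at 162, 165 and 163 CPM with Mbd2 siRNA, and the groups did not overlap. The log2 fold change was -0.91 (SE 0.08, edgeR adjusted p = 0.000577). The mean of Mdh1 went from 307 ± 16.6 to 163 ± 1.23 CPM (SD, n = 3 each), so that 0.532 of the level remained. Mdh1 (chromosome 11, 21556692 to 21571934, from RefSeq) kept an adjusted p of at most 0.0122 over its 15 alternatives to the fit without the block. Of 9 alternatives to the fit with the block it passed in 8, with a highest edgeR adjusted p of 0.0510 without replicate 3.

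Rcn2, which encodes the calcium-binding ER protein reticulocalbin 2, stood at 87.0, 89.2 and 88.9 CPM with scramble and at 57.1, 54.7 and 50.6 CPM with Mbd2 siRNA. The scramble libraries were nearly level and each knockdown library lay well below them. Rcn2 (chromosome 9, 56041845 to 56061882) fell by 0.71 on the log2 scale (SE 0.08, edgeR adjusted p = 0.00423). It passed in 13 of 15 alternatives, with a highest adjusted p of 0.0569 without Mbd2 siRNA replicate 2. Of 9 alternatives to the fit with the block it passed in 6, with a highest edgeR adjusted p of 0.0954 without replicate 3.

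The other 3 genes past the threshold fell by less. Twf1, which encodes the actin monomer-binding protein twinfilin-1 (chromosome 15, 94577951 to 94589889), stood at 110, 108 and 110 CPM with scramble and 75, 75.6 and 72.2 CPM with Mbd2 siRNA (log2 fold change -0.56, SE 0.07, edgeR adjusted p = 0.0206). Selenot, an ER selenoprotein gene (chromosome 3, 58576636 to 58593133), stood at 204, 203 and 196 CPM and at 140, 146 and 123 CPM (-0.56, SE 0.08, adjusted p = 0.0496). Hif1a, the oxygen-regulated transcription factor gene (chromosome 12, 73901375 to 73947530), stood at 131, 137 and 131 CPM and at 95.8, 97.0 and 92.8 CPM (-0.48, SE 0.07, adjusted p = 0.0496). In each of the 3 the groups were apart and the spread inside a group was small. Each of these calls was lost when any single siRNA library was left out, and was kept without the batch 3 libraries. The highest adjusted p, without scramble replicate 1, was 0.256 for Twf1 and 0.351 for Selenot and Hif1a. The log2 fold changes of Twf1, Selenot and Hif1a over all alternatives stayed within -0.57 to -0.53, -0.61 to -0.49 and -0.49 to -0.46. Twf1 shares exon sequence with Irak4 on the opposite strand and Mdh1 with Wdpcp, but these neighbours were at 8.3 and 6.15 CPM, and whether the counting used strand is not given in the sources used here.

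**Figure D2:**
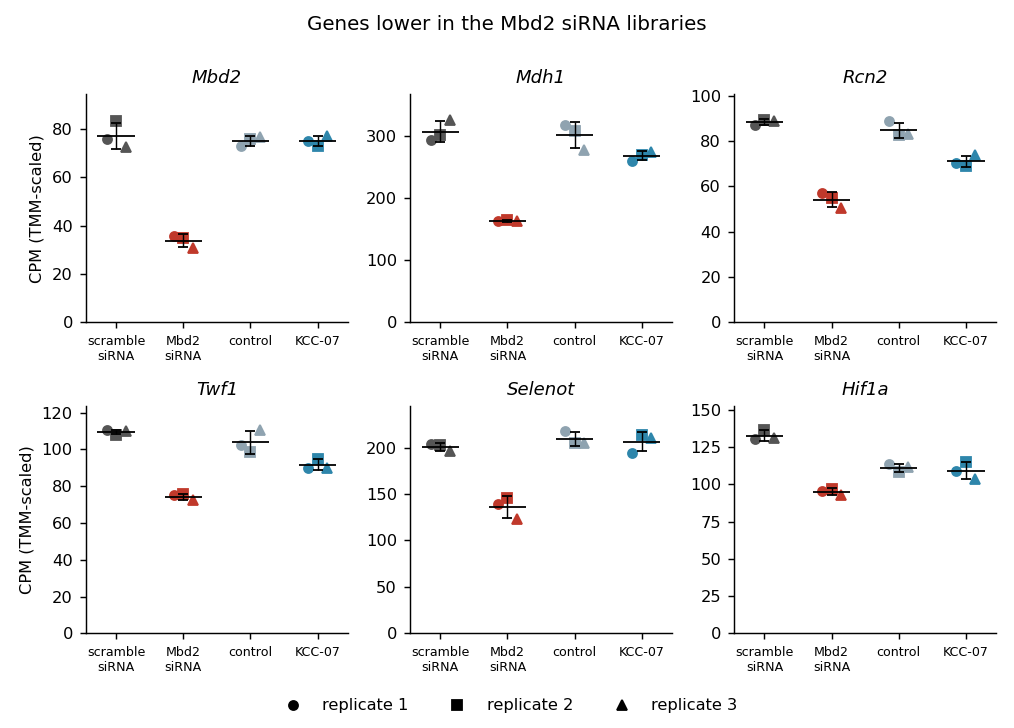
CPM of the 6 genes past the threshold without the block, in all 12 libraries, with bars for the mean ± SD (n = 3) and marker shapes for replicates 1 to 3. In each panel the 3 Mbd2 siRNA libraries lie below the 3 scramble libraries, for example 30.6 to 35.7 against 72.5 to 83.2 CPM for Mbd2.

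Of the genes that fell only with the block, the naming rule took the 6 largest changes with libraries apart. These calls were not firm in the 4 fits with the block that left out 1 replicate or batch 3. Hprt and Fam126a passed in 2 of the 4, Mest in 1, and Gpr155, Ankrd44 and Plau in 0. Mest, an imprinted gene expressed from the paternal copy, stood at 11, 11.4 and 10.5 CPM with scramble and at 5.91, 5.58 and 5.29 CPM with Mbd2 siRNA. The groups did not overlap, and the folds within the pairs were 0.540, 0.492 and 0.506 (log2 fold change -0.97, SE 0.11, edgeR adjusted p = 0.00806 with the block and 0.117 without). Mest shares exon sequence on the opposite strand with Copg2, at 55.1 CPM and a log2 fold change of 0.02, so its counts are uncertain. Hprt, the purine salvage enzyme often used as a reference gene, stood at 113, 113 and 111 CPM and at 66.7, 66.1 and 56.9 CPM. The knockdown libraries of Hprt all lay below the scramble libraries (log2 fold change -0.83, SE 0.08, adjusted p = 0.0029 with the block and 0.0545 without).

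Fam126a, which encodes hyccin, a subunit of a phosphatidylinositol 4-kinase complex, stood at 82.6, 83.4 and 70.6 CPM with scramble and at 49.1, 55.4 and 38.3 CPM with Mbd2 siRNA (with the block -0.74, adjusted p = 0.00342). Plau, the urokinase plasminogen activator gene, stood at 16.3, 18.4 and 26 CPM and at 11.3, 11.1 and 13.9 CPM (-0.72, adjusted p = 0.0217). In Plau the replicate 3 library was the highest of each group, and the groups still did not overlap. Gpr155, a lysosomal membrane protein gene (-0.80, adjusted p = 0.0407), and Ankrd44 (-0.78, adjusted p = 0.029) fell with the block as well. Among the other lower genes, chosen here after their values were seen, were the serine synthesis enzyme gene Phgdh (-0.60, adjusted p = 0.029), the translation factor gene Eif5a2 (-0.63, 0.0125), the ER calcium pump gene Atp2a2 (-0.51, 0.0215), the adaptor gene Ywhaz (-0.44, 0.037) and the abundant chaperone gene Hsp90ab1, at 4012, 3963 and 3786 CPM against 3018, 2892 and 2787 CPM (-0.44, 0.0231). These values are edgeR log2 fold changes and adjusted p with the block. Phgdh has near-identical pseudogene copies and 1 of them, Gm7901, was itself called lower, so its counts may be shared. Cdk6, the G1 cyclin-dependent kinase gene, was the only 1 of the 49 whose libraries overlapped between the groups.

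The interferon programme was the main group among the higher genes. All 52 type I interferon response genes of the list were tested, all 52 had a log2 fold change above 0 (50.9% of all genes tested did), and the median was 1.36 against 0.00 over all genes. The medians of the 3 replicate pairs were 1.21, 1.03 and 1.55. None of the 52 passed in edgeR without the block, and DESeq2 called Ddx58 and Mx2. At an unadjusted p under 0.05 in edgeR there were 30 higher, against 2.6% of all genes. With the block 32 rose, against 0.422% of all genes. Mbd2 siRNA stood above scramble in all 3 pairs for 51 of them (24.8% of all genes), and it stood at least 2-fold above in all 3 pairs for 25 (0.308% of all genes).

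The groups overlapped in most of these genes, and replicate 3 was the highest library of each group in their summed level. The summed level of the list was 1111, 1089 and 2405 CPM in scramble replicates 1 to 3 and 2036, 1770 and 6088 CPM in the Mbd2 siRNA libraries. Scramble replicate 3 was above Mbd2 siRNA replicate 1 for 45 of the 52 genes and above replicate 2 for 48, while 51 of the 52 were higher with Mbd2 siRNA in each of the 3 pairs. In replicates 1 and 2 alone, both Mbd2 siRNA libraries were above both scramble libraries for 51 of the 52 genes, against 26.7% of all genes. Without the batch 3 libraries of all groups and without the block, 35 of the 51 list genes tested rose, against 82 of all 14980. The list median depended on which replicate 3 library was kept: 0.38 without Mbd2 siRNA replicate 3 and 2.22 without scramble replicate 3. In the control cells of the drug arm the sum was 879 to 1018 CPM, below all 6 siRNA libraries, and with KCC-07 it was 1106 to 1218 CPM. No transfection without siRNA is among the groups, so an effect of transfection itself was not tested.

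Of 27 nucleic acid sensors and RNA interference genes tested, 18 had a log2 fold change below 0, the median was -0.06 and 14 were lower in all 3 pairs, against 25.1% of all genes. The 4 that rose with the block, Ddx58, Ifih1, Dhx58 and Eif2ak2, are also members of the interferon list, and none of the 27 fell. Ddx58, which encodes RIG-I, stood at 151, 149 and 250 CPM with scramble and at 280, 258 and 574 CPM with Mbd2 siRNA. It is 1 of 4 of the 52 interferon list genes whose groups did not overlap, against 10.3% of all genes tested in this direction. Its pair folds were 1.86, 1.73 and 2.30 (log2 fold change 0.96, SE 0.09, edgeR adjusted p = 0.0029 with the block and 0.458 without). Ifih1, which encodes MDA5, stood at 23.7, 21.6 and 59.7 CPM and at 48.8, 37.5 and 140 CPM. Its scramble replicate 3 lay above both first knockdown libraries (1.03, adjusted p = 0.00896 with the block). The regulator of both sensors, Dhx58 (LGP2), rose by 1.73 (adjusted p = 0.000498), the Z-form nucleic acid sensor gene Zbp1 by 1.14 (0.0029), the RNA-activated kinase gene Eif2ak2 (PKR) by 0.66 (0.0351) and the RNA-editing enzyme gene Adar by 0.62 (0.0401), all with the block. The DNA sensing adaptor gene Tmem173 (STING) went the other way, at 55.9, 58.1 and 64.2 CPM with scramble and 46.6, 45.7 and 54.2 CPM with Mbd2 siRNA, and did not pass (-0.28, adjusted p = 0.128 with the block).

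The interferon genes themselves were near the floor of detection. None of the 20 interferon genes listed passed the filter. Ifnb1 had 0, 0 and 4 counts with scramble and 0, 5 and 7 counts with Mbd2 siRNA, and Ifna4 had 0, 0 and 0 against 2, 0 and 4. The other 18 had at most 1 count in any of the 6 libraries, so a difference in interferon mRNA was not detectable at this depth. The receptor genes were well expressed and nearly level. Ifnar1 had a log2 fold change of -0.03 (95% interval -0.26 to 0.20) and Ifnar2 of -0.02 (-0.62 to 0.59).

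Downstream of the receptor, Irf9, the DNA-binding subunit of ISGF3, rose with the block. It stood at 9.46, 9.55 and 34.4 CPM with scramble and at 30.9, 23.9 and 81.8 CPM with Mbd2 siRNA (log2 fold change 1.42, edgeR adjusted p = 0.00107 with the block), and scramble replicate 3 lay above Mbd2 siRNA replicates 1 and 2. Stat2, which encodes another subunit, stood at 11.3, 11.6 and 12.2 CPM and at 18.6, 15.9 and 39.9 CPM, apart between the groups, but with unequal pair folds of 1.64, 1.37 and 3.25 it did not pass (adjusted p = 0.489 without the block and 0.23 with it). Irf9 shares exon sequence with Rnf31 on the same strand, at 24.7 CPM and a log2 fold change of 0.25, and its counts are uncertain.

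Irf7, the interferon-inducible transcription factor that amplifies interferon production, had some of the largest changes. It stood at 4.21, 3.49 and 33.4 CPM with scramble and at 33.4, 23 and 155 CPM with Mbd2 siRNA. The pair folds were 7.82, 6.49 and 4.64 (log2 fold change 2.60, SE 0.15, edgeR adjusted p = 0.000315 with the block; 2.36, SE 0.86, adjusted p = 0.773 without). Without the batch 3 libraries and without the block it rose by 2.87 (SE 0.23, adjusted p = 0.00147). Irf7 overlaps exons of Phrf1 on the opposite strand, a gene at 112 CPM with a log2 fold change of 0.01. Usp18, the protease that removes ISG15 and dampens receptor signalling, went from 0.534, 0.634 and 8.82 CPM to 7.89, 5.34 and 58.0 CPM, with pair folds of 13.2, 7.72 and 6.54 (3.11, SE 0.28, adjusted p = 0.00273 with the block).

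Several antiviral effector genes rose with the block. Isg15, a ubiquitin-like modifier, stood at 17.1, 17.3 and 74.1 CPM with scramble and at 55.2, 46.9 and 231 CPM with Mbd2 siRNA. Ifit1, which binds foreign RNA ends, stood at 9.49, 9.94 and 67.0 CPM and at 35.2, 29.0 and 276 CPM. Oasl2, of the oligoadenylate synthetase family, stood at 15.7, 15.8 and 93.4 CPM and at 60.0, 47.3 and 330 CPM. In all 3 genes scramble replicate 3 lay above Mbd2 siRNA replicates 1 and 2, and the folds inside the pairs were similar: 3.21, 2.71 and 3.11 for Isg15, 3.69, 2.90 and 4.12 for Ifit1, and 3.82, 2.99 and 3.52 for Oasl2. With the block they rose by 1.59 (edgeR adjusted p = 0.000699), 1.84 (0.00273) and 1.78 (0.000203), and without it their adjusted p were 0.866, 0.921 and 0.892. Without the batch 3 libraries and without the block the 3 rose by 1.57 (adjusted p = 0.00171), 1.73 (0.00411) and 1.77 (0.000613).

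Mx2, a dynamin-like GTPase gene of the Mx family that GENCODE lists as a polymorphic pseudogene in this genome, was lower in level but apart between the groups, at 0.628, 0.673 and 2.73 CPM with scramble and 4.64, 3.97 and 15.5 CPM with Mbd2 siRNA (log2 fold change 2.63, SE 0.30, edgeR adjusted p = 0.00837 with the block and 0.347 without). Further effector genes rose with the block: Mx1 by 1.71 (adjusted p = 0.0215), Oas1a by 1.93 (0.000536), Oas2 by 2.80 (0.0296), Ifi44 by 2.72 (0.0029), Rsad2 (viperin) by 1.12 (0.00946), Cmpk2 by 1.48 (0.00273), Ifit3 by 1.63 (0.0304), Rtp4 by 1.49 (0.00223) and Parp9 by 0.88 (0.012). Bst2 (tetherin) did not pass, at 26.8, 24.4 and 73.2 CPM against 59.2, 51.5 and 185 CPM (1.19, adjusted p = 0.079 with the block). Without Mbd2 siRNA replicate 3 and without the block, Ifit3 had a log2 fold change of -0.52 and Rsad2 of -0.27. In the 4 fits with the block that left out 1 replicate or batch 3, Mx2, Mx1, Oas2 and Ifit3 passed in 0. Rsad2 passed in 1 of them, Ifi44, Cmpk2 and Parp9 in 2, Oas1a in 3 and Rtp4 in 4. Isg15, Ifit3 and Oas1a have near-identical copies (AC151275.1, Ifit3b and Oas1g), and Parp9 overlaps Dtx3l on the opposite strand, so the counts of these genes are uncertain. The interferon genes named beyond the rule were chosen after their values were seen.

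**Figure D3:**
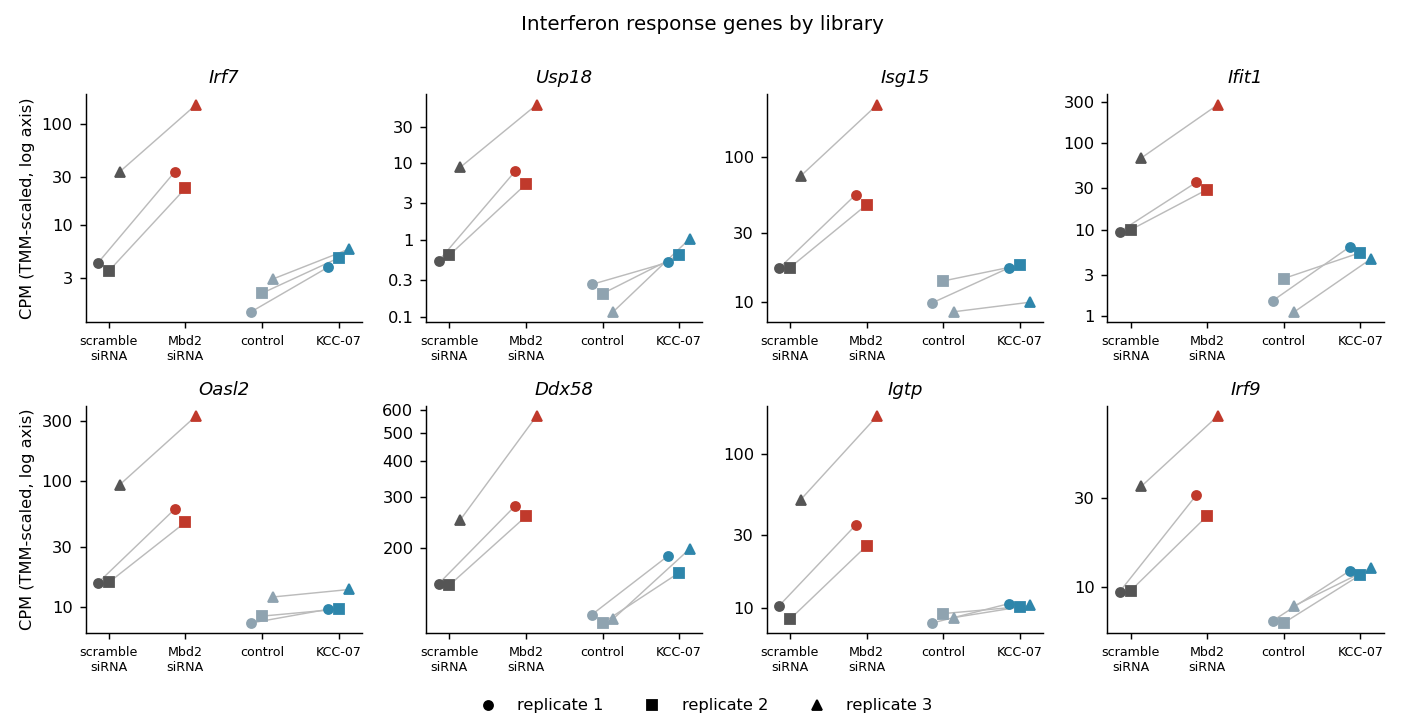
CPM (log axis) of 8 interferon response genes in all 12 libraries, with grey lines joining libraries of the same replicate number inside each arm. Every line of the siRNA arm runs upward from scramble to Mbd2 siRNA, and replicate 3 (triangles) starts from a higher level, as for Irf7 at 33.4 CPM against 4.21 and 3.49 CPM.

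The interferon-induced GTPases, which act on membranes that surround intracellular pathogens, moved in the same direction. This list was added after the data were seen, and it shares members with the interferon list, Igtp, Iigp1 and Gbp3 among them. It is therefore not a separate group: of the 63 genes that rose with the block, 32 were in the interferon list and 36 in either list. Of 15 tested, 14 had a log2 fold change above 0 (50.9% of all genes tested did), and the median was 1.21. None passed in edgeR without the block, and DESeq2 called none. At an unadjusted p under 0.05 there were 7 higher, against 2.6% of all genes, and 7 rose with the block, against 0.422%. Igtp stood at 10.4, 8.52 and 50.7 CPM with scramble and at 34.8, 25.4 and 177 CPM with Mbd2 siRNA (1.71, edgeR adjusted p = 0.000203 with the block). Its neighbour Irgm2 rose by 1.72 (adjusted p = 0.000315), and since the 2 genes share exon sequence on the same strand they may share counts. Iigp1 rose by 2.05 (0.00107) and Gbp3 by 1.69 (0.0029), both with the block. The groups overlapped in all 15 of these genes, while in 10.3% of all genes tested Mbd2 siRNA lay above scramble without overlap.

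Genes of MHC class I and antigen presentation, which interferon also raises in many cells, were higher by less. Tap1, Psmb8, Psmb9 and Nlrc5 of this list are also in the interferon list. All 23 tested had a log2 fold change above 0 (50.9% of all genes tested did), with a median of 0.31 and pair medians of 0.20, 0.14 and 0.57. None passed with or without the block or in DESeq2, and 3 were higher at an unadjusted p under 0.05, against 2.6% of all genes. Tap1, the peptide transporter gene, stood at 16.0, 15.7 and 25.8 CPM with scramble and at 29.8, 26.4 and 88.8 CPM with Mbd2 siRNA, apart between the groups but not past the threshold (1.15, adjusted p = 0.0578 with the block). Tap1 shares exon sequence with Psmb9 on the opposite strand, at 8.45 CPM and a log2 fold change of 0.68, and its counts are uncertain. The classical class I gene H2-D1 stood at 239, 237 and 293 CPM and at 302, 286 and 471 CPM (0.43, adjusted p = 0.24 with the block).

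Outside the interferon lists, 27 genes rose with the block. Some of these are known as interferon-inducible although the lists did not hold them, and their groups overlapped. Chosen after their values were seen, they include Slfn8 at 0.754, 0.792 and 10.6 CPM with scramble and 8.47, 5.55 and 48.5 CPM with Mbd2 siRNA (log2 fold change 2.71, edgeR adjusted p = 0.00342 with the block). Apol9a rose by 2.07 (adjusted p = 0.00333), the helicase gene Ddx60 by 2.16 (0.00107), the nuclear body gene Sp100 by 1.65 (0.0323) and Helz2 by 1.08 (0.0400), all with the block. The motif shown above was found for 7 of the 22 genes among these 27 that have a RefSeq promoter (31.8%, against 3.72% of genes tested). The rule, which asks for groups that do not overlap, named 10 others. Oscp1 stood at 3.33, 2.57 and 3.42 CPM with scramble and at 6.11, 4.91 and 7.52 CPM with Mbd2 siRNA (log2 fold change 0.98, edgeR adjusted p = 0.0217 with the block). Cnnm2, a magnesium transport gene, stood at 7.60, 8.44 and 10.2 CPM and at 15.1, 15.7 and 19.3 CPM (0.94, adjusted p = 0.0144). The pair folds were 1.82, 1.88 and 2.17 for Oscp1 and 1.98, 1.86 and 1.90 for Cnnm2, and the groups did not overlap in either. Galnt7, a mucin-type glycosyltransferase gene, rose by 0.77 (0.0319), Vwa5a by 0.72 (0.0231), Ctxn1 by 0.70 (0.0217), the molybdenum cofactor gene Mocs2 by 0.65 (0.0404), the mitochondrial gene Dnajc30 by 0.60 (0.0298), and the ER selenoprotein gene Selenon by 0.53 (0.0387), all with the block.

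Taldo1, the transaldolase of the pentose phosphate pathway, stood at 84.7, 88.2 and 85.3 CPM with scramble and at 125, 125 and 137 CPM with Mbd2 siRNA (0.58, edgeR adjusted p = 0.0176 with the block and 0.107 without). Spop, a substrate adaptor of cullin-3 ubiquitin ligases, stood at 48.2, 46.1 and 52.1 CPM and at 64.7, 70.1 and 77.0 CPM (0.53, adjusted p = 0.0127 with the block). The libraries of all 10 genes were apart by the rule. In the 4 fits with the block that left out 1 replicate or batch 3, Oscp1, Ctxn1, Mocs2, Dnajc30 and Taldo1 passed in 0. Cnnm2, Galnt7, Vwa5a, Spop and Selenon passed in 1 of them. Dnajc30 shares exon sequence with Bud23 on the opposite strand, at 40 CPM and a log2 fold change of 0.02, and its counts are uncertain.

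The control cells of the drug arm, which received no siRNA by their labels, give a second level to set these genes against. Of the 27 genes outside the interferon lists that rose with the block, the control mean (log2 CPM) lay nearer to the scramble mean for 16 and nearer to the Mbd2 siRNA mean for 11, against 53% of all genes tested nearer to Mbd2 siRNA. The 10 of them that the rule named, by largest change among genes whose groups do not overlap, were all among those nearer to Mbd2 siRNA. Itga8 and Lman1, also among the 27 and with groups that do not overlap, were nearer to scramble. Taldo1 averaged 142 ± 17.3 CPM and Oscp1 6.99 ± 0.322 CPM in control (SD, n = 3), above the scramble libraries in both. For the 52 interferon response genes the order was the opposite: the control mean lay nearer to scramble for all 52. Of the 6 genes that fell without the block, 5 had a control mean nearer to scramble, among them Mbd2 (75.1 ± 1.94 CPM) and Mdh1 (302 ± 21 CPM), and Hif1a (111 ± 2.60 CPM) lay nearer to Mbd2 siRNA. Of the 49 that fell with the block, 34 were nearer to scramble and 15 to Mbd2 siRNA, such as Atp2a2 at 384 ± 33.7 CPM in control against 519, 523 and 540 CPM with scramble and 370, 368 and 370 CPM with Mbd2 siRNA. The siRNA and drug arms may differ in culture as well as in siRNA, and these cannot be told apart.

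Among genes tied to the function of MBD2 few passed the test. Among 16 methyl-CpG binding proteins Mbd2 alone passed, and Mbd3, its closest relative and a NuRD subunit of its own, stood at 110, 108 and 122 CPM with scramble and 102, 105 and 120 CPM with Mbd2 siRNA (log2 fold change -0.06, 95% interval -0.43 to 0.32). Of 18 NuRD subunits tested none passed with edgeR, with or without the block, or with DESeq2. Their log2 fold changes ran from -0.31 to 0.26 with a median of 0.00, and 3 had an unadjusted p under 0.05. Of 12 DNA methylation writers and erasers none passed either (median -0.03, range -0.39 to 0.63, 1 at an unadjusted p under 0.05, none with DESeq2).

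Genes reported as repressed by MBD2 or by DNA methylation gave few values. Only 6 of 14 reported MBD2 targets passed the filter, and none was called (range -0.17 to 0.59, none at an unadjusted p under 0.05). Adgrb1, the gene of the adhesion receptor BAI1, was barely detected at 0.597, 0.713 and 0.911 CPM with scramble and 0.786, 0.706 and 1.24 CPM with Mbd2 siRNA, and its interval of -1.06 to 1.66 leaves a change of 2-fold in either direction possible. Of 36 germline genes silenced by DNA methylation 31 stayed below the filter, and none of the other 5 was called (0 at an unadjusted p under 0.05). Among 21 imprinted genes Mest alone passed, with the block, and it was lower. Ube3a stood at 99.0, 108 and 96.1 CPM with scramble and 128, 121 and 107 CPM with Mbd2 siRNA (0.23, edgeR adjusted p = 0.286 with the block). DESeq2 called Mest and no other of the genes in these 3 lists.

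Most proliferation genes had log2 fold changes slightly below 0. Of 59 genes of G1/S and DNA replication 53 had a log2 fold change below 0, with a median of -0.15, and 49 were lower in all 3 pairs against 25.1% of all genes. None passed without the block and 6 had an unadjusted p under 0.05. DESeq2 called Mcm3 and Rrm2 lower, and with the block Cdk6 alone fell (-0.38, edgeR adjusted p = 0.0424). Mcm3, a subunit of the replicative helicase, stood at 313, 308 and 272 CPM with scramble and at 189, 191 and 160 CPM with Mbd2 siRNA. It differed more than the rest of the list, with pair folds of 0.602, 0.618 and 0.590, but did not pass in edgeR (-0.73, adjusted p = 0.423 without the block and 0.0824 with it). Rrm2, the regulatory subunit of ribonucleotide reductase, stood at 288, 281 and 306 CPM and at 219, 235 and 225 CPM (-0.37, adjusted p = 0.0761 with the block).

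Of 54 mitotic genes 43 were below 0 (median -0.08). None passed in edgeR, while DESeq2 called Aurkb and Kif20a lower, and 3 had an unadjusted p under 0.05. The kinase gene Aurkb stood at 85.1, 79.7 and 82.5 CPM with scramble and at 60.7, 67.7 and 55.8 CPM with Mbd2 siRNA (-0.43, edgeR adjusted p = 0.0564 with the block). Of 43 genes of MYC and ribosome biogenesis 38 were below 0 (median -0.13; 1 higher and none lower at an unadjusted p under 0.05), and of 59 cytosolic ribosomal proteins 55 were (median -0.04; none at an unadjusted p under 0.05). None of the members of these 2 lists passed in edgeR or DESeq2.

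Among metabolic and stress genes, 32 of 40 of glycolysis and the hypoxia response were below 0, with a median of -0.13 and similar pair medians of -0.13, -0.15 and -0.14. Hif1a was the only 1 to pass in either edgeR fit or in DESeq2. Ak4, a mitochondrial adenylate kinase gene, stood at 60.4, 54.5 and 53.7 CPM with scramble and at 40.6, 39.1 and 31.8 CPM with Mbd2 siRNA (-0.60, edgeR adjusted p = 0.0893 with the block). Epas1, which encodes HIF-2 alpha, stood at 123, 123 and 118 CPM and at 99.4, 104 and 90.3 CPM (-0.31, adjusted p = 0.204 with the block). Of 15 mitochondrially encoded genes 13 were below 0 (median -0.15), with pair medians of -0.07, -0.18 and -0.22, and none passed or had an unadjusted p under 0.05.

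In secretory pathway lists most values were above 0. Of 29 ER chaperone and unfolded protein response genes 22 were above 0 (median 0.16), and in 18 all 3 Mbd2 siRNA libraries lay above all 3 scramble libraries, against 10.3% of all genes. None passed in edgeR or DESeq2, and 1 had an unadjusted p under 0.05. That gene was Pdia4, a protein disulfide isomerase, at 278, 285 and 279 CPM with scramble and 365, 362 and 356 CPM with Mbd2 siRNA (0.36, edgeR adjusted p = 0.128 with the block). Outside the lists the ER cargo receptor gene Lman1, chosen after its values were seen, rose with the block, from 134, 137 and 135 CPM to 182, 177 and 180 CPM (0.41, adjusted p = 0.0245). Of 43 lysosome and autophagy genes 33 were above 0 (median 0.10; 1 at an unadjusted p under 0.05), and of 38 NF-kB and inflammatory cytokine genes 29 were below 0 (median -0.12; 1 at an unadjusted p under 0.05). None of these passed in edgeR or DESeq2.

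Adhesion and matrix genes gave single calls. The integrin alpha 8 gene Itga8 rose with the block, from 124, 122 and 142 CPM to 166, 161 and 178 CPM (log2 fold change 0.38, edgeR adjusted p = 0.0462), the only 1 of 18 integrin subunits to pass. The matricellular gene Ccn1 stood at 451, 485 and 556 CPM with scramble and at 643, 657 and 834 CPM with Mbd2 siRNA, apart between the groups. It was called by DESeq2 and not by edgeR (0.51, adjusted p = 0.095 with the block). Ccn2 stood at 362, 377 and 419 CPM and at 532, 530 and 671 CPM (0.58, adjusted p = 0.149 with the block). Fibronectin, Fn1, stood at 2620, 2562 and 2305 CPM and at 1946, 1965 and 1782 CPM (-0.39, adjusted p = 0.3 with the block).

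**Figure D4:**
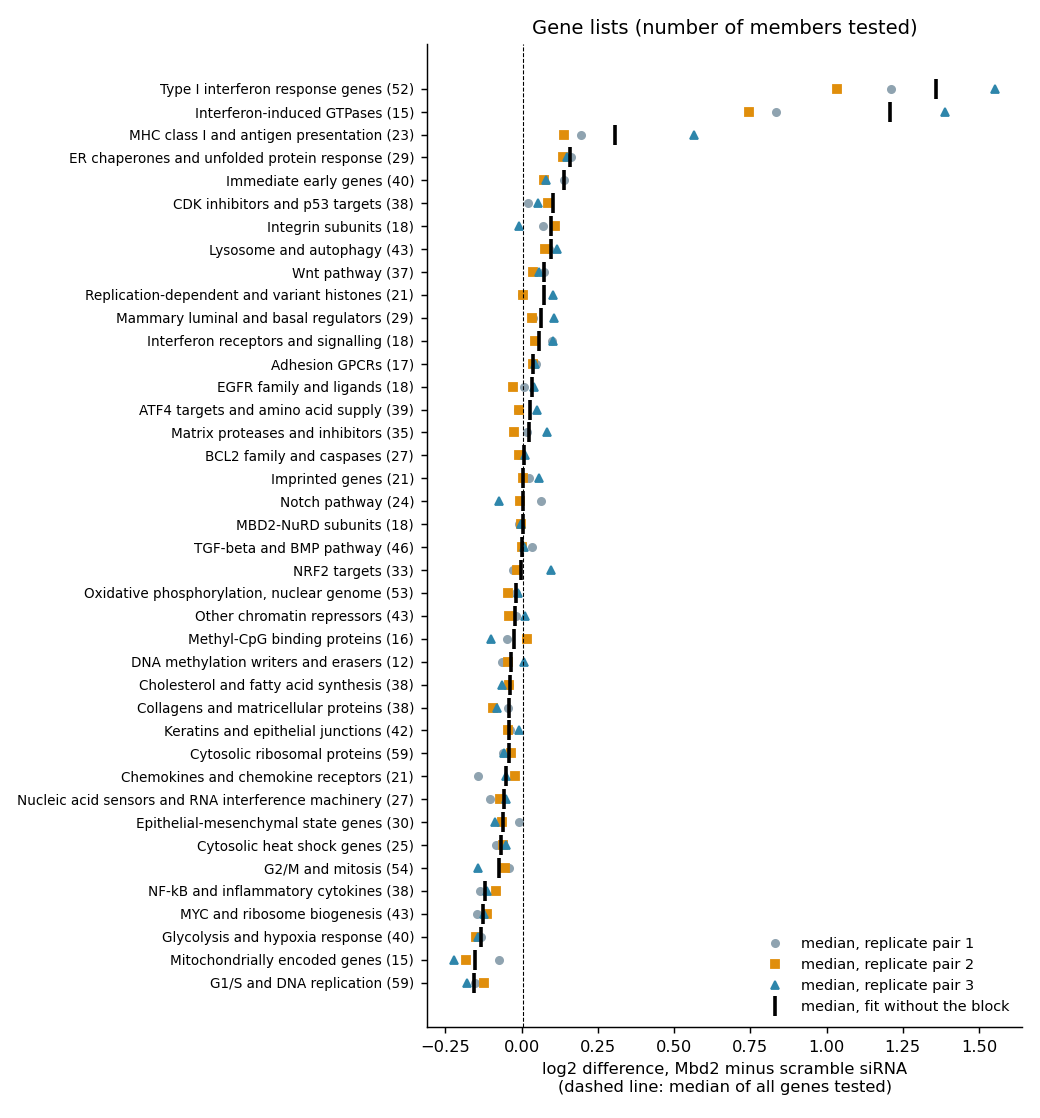
Median log2 difference of the members of each gene list with at least 12 members tested: black bars from the fit without the block, coloured markers for the 3 replicate pairs, and a dashed line for the median of all genes tested. The interferon list (1.36), the GTPases (1.21) and MHC class I (0.31) stand to the right of the other lists, and G1/S genes (-0.15) lie at the left end. The GTPase and MHC class I lists share members with the interferon list.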

How the data were processed

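Counts per gene were used as the authors deposited them: whole-number counts of reads for 55335 genes in 12 libraries, not normalized. Per the submitters' processing notes, DRAGEN, DESeq2 1.44.0 and the builds mm10 and GRCm38.p6 were used; the sources used here do not give their roles, the annotation, the strand setting or the handling of multi-mapping reads. The groups came from the treatment labels. Genes were filtered with edgeR's filterByExpr (minimum count 10, minimum total 15), scaled by TMM, and tested with edgeR 4.0.16 (glmQLFit and glmQLFTest, R 4.3.3) over all 12 libraries, which share 1 estimate of the spread, with Benjamini-Hochberg adjustment over the 14935 genes and a threshold of 0.05. All adjusted p are from this test unless DESeq2 1.42.0 is named. CPM are counts per TMM-scaled library size. Depth was similar between groups, and the median standard error was 0.17 (log2) without the block and 0.12 with it.

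The labels carry a batch tag that gives the replicate number, so a fit with that number as a block within each arm was made as well. The correlation of same-numbered deviations from the group means was 0.09, 0.15 and 0.42 for replicates 1, 2 and 3, and -0.30 to 0.21 between unlike numbers. Scramble replicate 1 with Mbd2 siRNA replicate 2 gave 0.21, and scramble replicate 2 with Mbd2 siRNA replicate 1 gave 0.18. The deviations thus matched replicate 3 by number but did not match replicates 1 and 2 by number. The labels call the libraries biological replicates and do not say what was separate between them, so p-values measure the spread between these samples, which may be in part technical. Genes were named by rule: Mbd2, Mbd3 and Adgrb1, up to 12 per direction by log2 fold change with a mean of at least 2 CPM (filled with genes that pass only with the block and whose groups do not overlap), and up to 3 per list by smallest p; any other gene was chosen after its values were seen. The members, lists and rule were chosen with earlier results of these data known, and 3 interferon lists (interferon genes, receptors and signalling, GTPases) were added after the data were seen. Promoter sequences are from RefSeq (GRCm38.p6), and gene positions from GENCODE M21 or RefSeq on the same build. On simulated counts for 14735 genes, with 100 genes changed at each size, the test found 51 (no block) and 46 (block) of the 1.5-fold changes and 72 of the 2-fold changes in both. The simulated counts held no replicate effect, and their spread was estimated with the block. In the real libraries replicate 3 stood apart, so the simulation does not tell how many such changes the fit without the block finds here. Alternatives were other size factors, filters and thresholds, DESeq2, the 6 libraries alone, the block, and leaving out libraries. Some results are not reported here.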

Additional observations from a re-analysis of the deposited data

Results flagged for a closer look

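For 10 of the genes named, the effect of Mbd2 siRNA against scramble differed from that of KCC-07 against control in a test of the difference itself (edgeR, adjusted over all genes). Most named genes were picked by their values in the siRNA comparison. The share of all genes that passed this test is not given here, so the count of 10 is not a result about the genes named. Mbd2 had a log2 fold change of -1.20 with the siRNA and -0.0024 with the compound (difference -1.19, adjusted p = 0.00539), and Mdh1 of -0.91 and -0.17 (difference -0.74, adjusted p = 0.0170). Mest had the largest difference of the 10, at -0.97 with the siRNA and 1.08 with the compound (difference -2.06, adjusted p = 0.00676). The differences were -1.13 for Hook1 (adjusted p = 0.0312), -1.04 for Fam126a (0.0312), -0.84 for Epas1 (0.0259) and -0.63 for Atp2a2 (0.0339). They were 1.08 for Vwa5a (adjusted p = 0.0334), 0.98 for Ctxn1 (0.0259) and 0.94 for Dnajc30 (0.0339). In each of these genes except Mbd2 and Mdh1 the 2 effects had opposite signs. The arms differ in culture and agent, and what sets the effects apart was not tested.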

How the results depend on the processing

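Without the block 6 genes passed. Among single changes the count was 112 with the replicate block, 177 with the 6 libraries alone, 84 with DESeq2, 162 without batch 3, 3 at an adjusted p under 0.01, 12 under 0.1 and 1 with an absolute log2 fold change of at least 1; it was 2 to 3 without 1 replicate. With the 6 libraries alone and the block it was 2790, or 1493 with DESeq2. All 6 genes were among the calls with the block, with DESeq2 and without batch 3, and the calls without batch 3 held 93 of the 112. The count of 112 with the block became 254 with no filter, 2790 with the 6 libraries alone, 212 with DESeq2, 68 without batch 3, and 16, 30 and 13 without replicates 1, 2 and 3.

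For the 52 interferon response genes the count of 0 became 32 with the block and 2 with DESeq2. Without batch 3 it was 35 of 51 tested. With the 6 libraries alone and the block it was 51, or 38 with DESeq2. With the block, the 32 became 51 with the 6 libraries alone, and 8 to 22 without 1 replicate (10 without replicate 1, 8 without replicate 3). Their median of 1.36 ran from 0.38 (without Mbd2 siRNA replicate 3) to 2.22 (without scramble replicate 3).

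The sign changed under some alternative for 5 of the named genes. Without 1 replicate, the log2 fold change ran from -0.13 to 0.0014 for Mbd3, -0.52 to 3.76 for Ifit3, -0.27 to 2.52 for Rsad2, -0.11 to 0.013 for Ifnar1 and -0.15 to 0.13 for Ifnar2, and Ifnar1 was at 0.0083 with the block and without replicate 2. The causes were not tested. The low counts of the interferon genes and the 3 libraries per group limit what could be detected.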
